A study of Homo sapiens with 2 samples.

Results

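The 10 genes HIF1A, EPAS1, VHL, EGLN1, EGLN3, CA9, CA12, ADM, BNIP3 and NDRG1, which encode hypoxia-inducible factors, their negative regulators and targets, were examined in 2 human liver cancer cell lines. They were taken by symbol from the gene tables of both lines, where each matched 1 of the 57820 listed genes. SKHEP1 is labelled as endothelial cells, and HepG2 as hepatocellular carcinoma. Both were unmodified (WT) cultures in DMEM with fetal bovine serum and a mix of penicillin and streptomycin, and no hypoxia or other treatment is named in the labels. Stranded mRNA-seq gave 1 library per line, with 19940557 estimated reads assigned to genes in SKHEP1 and 22477757 in HepG2. The stated purpose of the profiling was to examine the long noncoding RNA PURPL and its transcript variants. No comparison between the lines has a replicate, so no difference was tested, and all 95% intervals cover counting error only.

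Hypoxia-inducible factor (HIF) is a dimer of an oxygen-regulated alpha subunit, HIF1A or EPAS1 (HIF-2 alpha), and a stable beta subunit, ARNT. With oxygen present, the prolyl hydroxylases encoded by EGLN1, EGLN2 and EGLN3 modify the alpha subunit, and the ubiquitin ligase that contains VHL then marks it for destruction, so that the alpha subunits are controlled mainly as proteins. When oxygen is low, HIF binds short DNA elements with the core ACGTG or GCGTG and raises transcription of genes for glycolysis, pH control, blood vessel growth and mitophagy. EGLN3, CA9, ADM, BNIP3 and NDRG1 are well-known HIF target genes. These tables hold RNA levels only, and neither protein nor oxygen was measured in them.

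The stretch before the start of 8 of the 10 genes was matched in RefSeq promoter windows (build GRCh38.p14), which were searched on both strands for the cores ACGTG and GCGTG of the hypoxia response element. In the 250 bases before the start, at least 1 core was found for 7 of the 8 genes, in 1 of the 2 windows of HIF1A and not for EGLN3. Of all 35116 windows of this length in the table, 43.2% held at least 1 of these cores, 18.5% ACGTG and 32.2% GCGTG. Of the 11387 windows with at least 65% GC, 61.2% held a core. The windows of 5 genes are shown, 5′ to 3′ along the gene with the cores of either strand in capitals, because they span the patterns described below: EPAS1 and CA9, higher in HepG2, ADM, higher in SKHEP1, and EGLN1 and BNIP3, at similar levels in both lines.
EPAS1 (chr2:46297157-46297406, plus strand): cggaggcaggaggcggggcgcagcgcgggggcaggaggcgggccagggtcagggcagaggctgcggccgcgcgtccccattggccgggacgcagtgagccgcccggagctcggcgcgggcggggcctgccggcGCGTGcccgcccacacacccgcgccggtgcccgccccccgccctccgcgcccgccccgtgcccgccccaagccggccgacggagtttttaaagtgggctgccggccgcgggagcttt
EGLN1 (chr1:231422288-231422537, minus strand): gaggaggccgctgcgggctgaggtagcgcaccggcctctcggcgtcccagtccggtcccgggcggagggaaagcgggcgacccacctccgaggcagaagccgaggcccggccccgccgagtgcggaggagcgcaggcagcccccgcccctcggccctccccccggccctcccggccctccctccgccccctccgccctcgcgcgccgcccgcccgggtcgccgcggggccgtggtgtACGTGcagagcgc
CA9 (chr9:35673678-35673927, plus strand): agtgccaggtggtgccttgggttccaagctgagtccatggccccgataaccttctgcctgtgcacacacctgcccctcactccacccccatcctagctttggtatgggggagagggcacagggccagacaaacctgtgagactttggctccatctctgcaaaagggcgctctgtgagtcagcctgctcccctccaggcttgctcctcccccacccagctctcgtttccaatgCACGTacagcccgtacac
ADM (chr11:10304823-10305072, plus strand): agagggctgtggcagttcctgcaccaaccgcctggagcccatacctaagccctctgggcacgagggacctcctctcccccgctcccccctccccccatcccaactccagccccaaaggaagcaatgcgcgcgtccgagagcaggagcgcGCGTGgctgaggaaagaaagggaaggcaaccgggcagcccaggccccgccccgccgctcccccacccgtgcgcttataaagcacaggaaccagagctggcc
BNIP3 (chr10:131981924-131982173, minus strand): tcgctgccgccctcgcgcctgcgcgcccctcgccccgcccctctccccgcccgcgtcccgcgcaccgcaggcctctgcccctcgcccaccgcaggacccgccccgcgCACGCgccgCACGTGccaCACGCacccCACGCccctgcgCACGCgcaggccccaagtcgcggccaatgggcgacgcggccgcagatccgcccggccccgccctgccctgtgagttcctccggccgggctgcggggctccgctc
The CA9 window held its single match, an ACGTG on the opposite strand, at 18 to 14 bases before the start, and EGLN1 an ACGTG at 13 to 9 bases. EPAS1 and ADM each held a single GCGTG, at 117 and 101 bases before the start. BNIP3 held 6 matches between 143 and 100 bases before the start, of which a pair of ACGTG on opposite strands overlap. Such a count of 6 or more was found in 0.646% of all windows. That share was not matched for GC, and the BNIP3 window had 81.6% GC. These matches describe letters in a window, and no binding was measured.

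Of the 10 genes, 2 were at least 4-fold higher in HepG2 (EPAS1 and CA9) and 2 in SKHEP1 (ADM and CA12). The background was 13.0% for HepG2 and 16.5% for SKHEP1 among all 15436 genes that had 10 or more counts in at least 1 of the libraries. All 10 genes passed that minimum, but EGLN3, CA9 and CA12 reached it in 1 line only, so for these a difference is partly built into the filter. The median log2 ratio, HepG2 over SKHEP1, was -0.01 for the 10 genes and -0.03 for all genes compared. HIF1A, EGLN1 and BNIP3 were the closest pairs. Levels are given in CPM (counts scaled to library size) for the comparison between lines, and in the deposited TPM (transcripts scaled to a fixed sum per library), which account for length, for the comparison between genes. The plot of TPM by gene shows the levels, and the plot of ratios shows the differences.

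**Figure D1:**
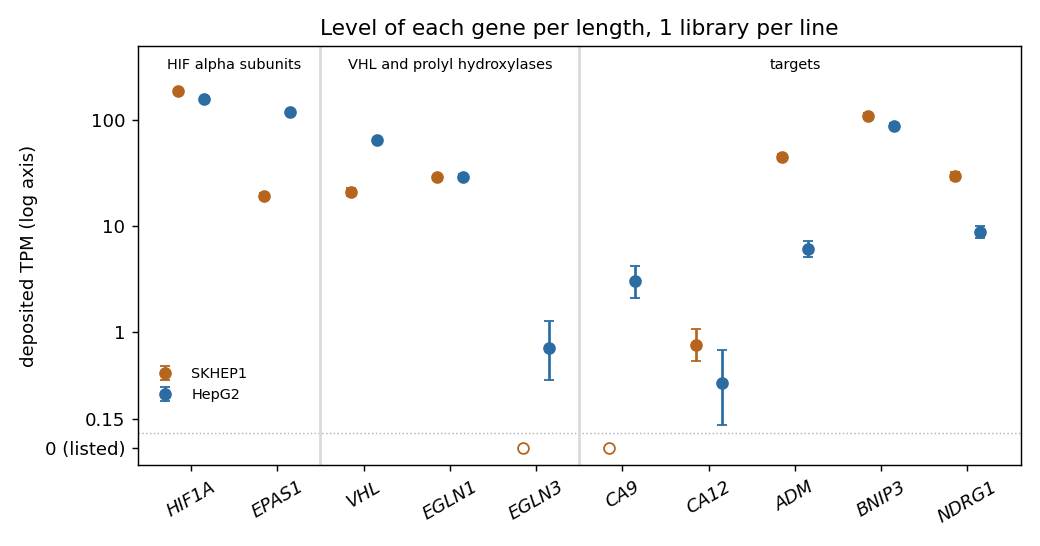
Deposited TPM (log axis) of each gene in SKHEP1 and HepG2, 1 library per line, with bars for the exact 95% Poisson interval of the count scaled to TPM; open circles are genes listed at 0. HIF1A is the highest in both lines, and EGLN3 and CA9 are at 0 in SKHEP1.

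The HIF1A transcript was abundant and nearly equal in the lines, whereas EPAS1 was higher in HepG2. HIF1A had 6806 counts in SKHEP1 and 6731 in HepG2, that is 336.8 and 303.4 CPM. The levels were 1.11-fold apart, with SKHEP1 the higher (95% counting interval 1.07 to 1.15), and 89.6% of all genes compared were further apart. With the ratio scaled on 15 housekeeping genes instead, HIF1A was the higher in HepG2, at a log2 ratio of 0.37. The antisense gene HIF1A-AS1, which overlaps an exon of HIF1A, had 1 and 2 counts.

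EPAS1 had 1082 counts in SKHEP1 and 6745 in HepG2, or 53.6 and 304.1 CPM. It was 5.68-fold higher in HepG2 (5.32 to 6.06), and 23.6% of all genes were further apart. EPAS1 is known in part as an endothelial HIF subunit, yet the lower value was in SKHEP1, the line labelled as endothelial cells. Of 9 matched endothelial markers, 4 were at 0 in SKHEP1, among them KDR, the main VEGF receptor, and CDH5, or VE-cadherin, had 1 count. In HepG2, 5 were at 0, and TEK was seen only in SKHEP1, with 5 counts. The summed level of these 9 markers was 1.78 CPM in SKHEP1 and 8.16 in HepG2, of which ESAM alone gave 0.79 and 6.49 CPM. KDR and CDH5 RNA were thus nearly absent in SKHEP1, while ESAM, TIE1 and VWF had 16, 10 and 4 counts there. The identity of the cells was not tested. Of 9 hepatocyte markers, all were detected in HepG2 and 8 were at 0 in SKHEP1, where SERPINA1 was the exception. SKHEP1 was at least 4-fold higher for 5 of 6 mesenchymal markers (83.3%, background 16.5%). Of 6 blood and immune markers 3 were compared. LYZ (lysozyme) was at least 4-fold higher in HepG2 (33.3%, background 13.0%), and 0 were in SKHEP1 (background 16.5%). CD68 was 2.07-fold higher in SKHEP1, and CD14 was 1.32-fold higher in HepG2 with an interval that includes equality (0.868 to 2.03).

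Per length, the makeup of the alpha subunit transcripts differed between the lines more than their sum did. HIF1A was at 186.6 TPM and EPAS1 at 19.3 TPM in SKHEP1, a gap of 9.67-fold. In HepG2 they were at 157.4 and 118.4 TPM, a 1.33-fold gap. EPAS1 thus made up 9.37% of the summed HIF1A and EPAS1 TPM in SKHEP1 and 42.9% in HepG2. The sums were 205.9 and 275.8 TPM.

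The remaining HIF subunits and cofactors were mostly at similar levels. Of 9 listed, 8 were compared. Of these, 2 were at least 4-fold higher in SKHEP1 (25%, background 16.5%) and 0 in HepG2 (background 13.0%). The list median was 0.17 on the log2 scale against -0.03 for all genes. ARNT, the beta subunit, was at 31.6 TPM in SKHEP1 and 21.6 in HepG2, 1.42-fold higher in SKHEP1 by counts (1.29 to 1.56). Its relative ARNT2 was 4.33-fold higher in SKHEP1 (3.22 to 5.92) by counts and 2.60-fold by TPM, so its call rests on the unit. CITED2, which competes with HIF for the coactivators EP300 and CREBBP, had 2905 counts in SKHEP1 against 350 in HepG2, a 9.11-fold difference (8.15 to 10.2). EP300 was 1.16-fold higher in HepG2, and CREBBP was at 95.1 CPM there against 63.4 in SKHEP1. HSP90AA1, a chaperone of HIF alpha subunits, was 1.96-fold higher in HepG2. HIF3A had 0 counts in both libraries.

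Among the negative regulators, VHL was higher in HepG2, EGLN1 was alike, and EGLN3 was barely detected. VHL, the substrate receptor of the ubiquitin ligase, had 646 counts in SKHEP1 and 2180 in HepG2, or 32.0 and 98.3 CPM. It was 3.07-fold higher in HepG2 (2.81 to 3.36), below the 4-fold limit. Scaled on the housekeeping genes, its log2 ratio was 2.14 in place of 1.62, which passes that limit. The summed HIF1A and EPAS1 TPM was 9.85 times the VHL TPM in SKHEP1 and 4.30 times in HepG2.

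EGLN1, the main oxygen-sensing prolyl hydroxylase of most cells, had 1227 counts in SKHEP1 and 1485 in HepG2, or 60.7 and 66.9 CPM. The ratio was 1.10 with HepG2 the higher (1.02 to 1.19), and 90.4% of all genes were further apart. By TPM EGLN1 was at 28.8 and 29.2.

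EGLN3, a hydroxylase whose gene is itself induced by HIF, had 0 counts in SKHEP1 against 11 in HepG2. The floor of 3 counts set for a count of 0 is 0.148 CPM in SKHEP1, against a measured 0.50 CPM in HepG2, while the exact 95% upper limit of a count of 0 is 3.69 counts, or 0.183 CPM. Against the floor EGLN3 was at least 3.34-fold higher in HepG2, short of 4-fold, and the lower 95% limit of the ratio was 2.29. The call rests on how a count of 0 is treated and on the scaling: with a prior count of 2 added to both lines the log2 ratio was 2.65, and scaled on the housekeeping genes it was 2.26, both past 4-fold. Its antisense gene EGLN3-AS1 had 0 counts in both.

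EGLN2, the hydroxylase outside the 10 genes, was the most abundant of the family per length in both lines. It was at 84.4 TPM in SKHEP1 and 38.9 in HepG2, which is 74.6% and 56.5% of the summed EGLN TPM. By counts EGLN2 was 2.02-fold higher in SKHEP1 (1.84 to 2.21). It shares sequence with the read-through gene RAB4B-EGLN2, listed at 17.2 and 5.11 expected counts, and is uncertain to that extent.

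Of the 10 listed genes of oxygen sensing and the VHL complex beside the members, 1 was at least 4-fold higher in each line. That is 10% each, against a background of 16.5% for SKHEP1 and 13.0% for HepG2. The other 8 did not reach 4-fold, and the median was -0.20. The subunits that join VHL in the ligase were close: ELOB was 1.11-fold, ELOC 1.19-fold, RBX1 1.08-fold and CUL2 1.81-fold higher in SKHEP1. SIAH2, a ubiquitin ligase that degrades EGLN proteins, had 327 counts in SKHEP1 against 2499 in HepG2, a 6.96-fold difference (6.20 to 7.84). Its relative SIAH1 was 2.60-fold higher in HepG2. P4HTM, a membrane-bound prolyl hydroxylase, went the other way, at 140 counts in SKHEP1 against 1 in HepG2, where the raw ratio was 153.7 (27.1 to 6114). HIF1AN, the asparaginyl hydroxylase that blocks coactivator binding, was at 33.0 and 30.7 TPM.

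**Figure D2:**
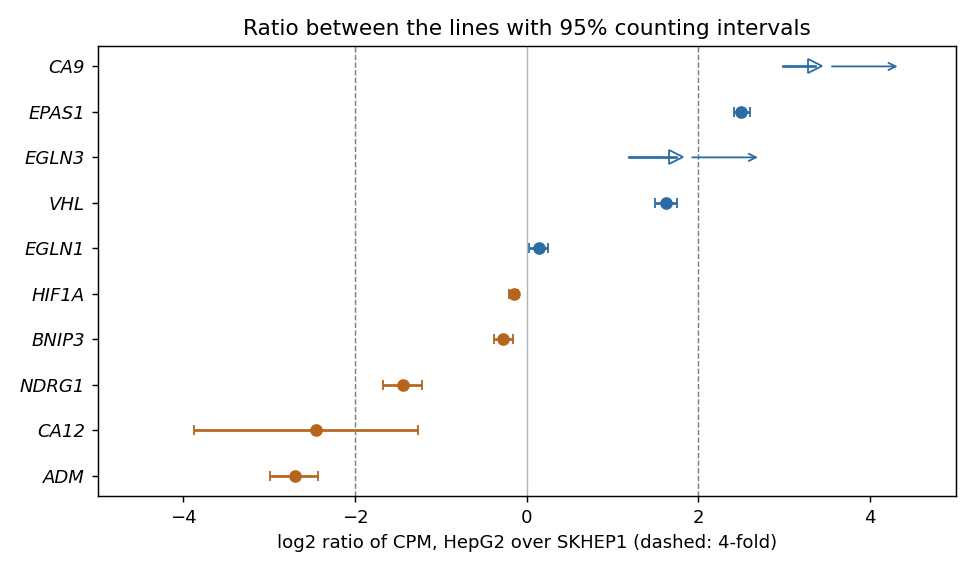
Log2 ratio of CPM, HepG2 over SKHEP1, for each gene, with exact 95% counting intervals as bars and the 4-fold limits dashed; open triangles with arrows are lower bounds against 3 counts. ADM and CA12 lie beyond the limit on the SKHEP1 side and EPAS1 and CA9 on the HepG2 side, while the CA12 interval crosses the limit.

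The 5 targets did not share a direction: ADM and NDRG1 were higher in SKHEP1, BNIP3 was alike, and the carbonic anhydrases were low in both lines. ADM encodes adrenomedullin, a secreted vasodilator peptide. It had 760 counts in SKHEP1 and 128 in HepG2, or 37.6 and 5.77 CPM, and was 6.52-fold higher in SKHEP1 (5.40 to 7.92). By TPM the values were 44.8 and 6.10. ADM remained past 4-fold in the direction of SKHEP1 under every scaling tried, and 21.9% of all genes were further apart.

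The receptor genes for adrenomedullin were near 0 in both lines, apart from RAMP2 at 3.43 TPM in HepG2. The enzyme that completes the peptide was expressed. The receptor CALCRL had 5 counts in SKHEP1 and 0 in HepG2. Its partners RAMP1 and RAMP3 had at most 3 counts in either line, and RAMP2 had 6 and 27. The scavenger receptor ACKR3 had 0 in both. PAM, which amidates the peptide, had 2166 counts in SKHEP1 against 798 in HepG2, a 2.98-fold difference (2.75 to 3.24). The related peptide gene ADM2 was 1.30-fold higher in SKHEP1 with an interval that includes equality (0.984 to 1.71). Of the 7 listed genes, 3 were compared, 1 of them at least 4-fold higher in HepG2 (RAMP2, 4.10-fold, 1.66 to 12.1). That is 33.3% of the 3, against a background of 13.0%, and 0 were in SKHEP1 (background 16.5%).

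NDRG1, a cytoplasmic stress-response protein encoded on chromosome 8, had 566 counts in SKHEP1 and 229 in HepG2, or 28.0 and 10.3 CPM. It was 2.71-fold higher in SKHEP1 (2.32 to 3.18), or 3.40-fold by TPM, where the isoform-weighted length was 1684 bases in SKHEP1 and 2000.03 in HepG2. NDRG1 and ADM were thus both lower in HepG2, and their order per length changed from 44.8 over 29.8 TPM in SKHEP1 to 6.10 under 8.78 TPM in HepG2. The 3 relatives of NDRG1 were not higher in SKHEP1. NDRG2 had 11 counts in SKHEP1 against 1058 in HepG2, an 87.6-fold difference by counts (48.8 to 176.0) and 39.2-fold by TPM. NDRG4 had 8 and 64 counts, 7.29-fold higher in HepG2 by counts (3.48 to 17.6) but 2.40-fold by TPM. NDRG3 was at 35.7 and 38.5 TPM.

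BNIP3, a mitochondrial outer membrane receptor for mitophagy, had 1364.82 expected counts in SKHEP1 and 1242.59 in HepG2, or 67.6 and 56.0 CPM. The ratio was 1.21 with SKHEP1 the higher (1.12 to 1.30). Scaled on the housekeeping genes, BNIP3 was instead the higher in HepG2, at a log2 ratio of 0.25. Fractional expected counts arise where reads are divided between genes, and the pseudogene BNIP3P1 was listed at 2.18 and 5.41, so BNIP3 is uncertain to that extent. BNIP3L (NIX), the close relative of BNIP3 with the same role, had 3842 counts in SKHEP1 against 488 in HepG2, an 8.64-fold difference (7.87 to 9.52). Per length BNIP3L was 1.15-fold above BNIP3 in SKHEP1, at 126.9 TPM against 110.2. In HepG2 BNIP3 was instead 5.94-fold above BNIP3L, at 88.2 TPM against 14.9. PINK1, a kinase of a separate mitophagy route, was 8.52-fold higher in SKHEP1 (7.49 to 9.72). FUNDC1, another mitophagy receptor, was at 23.3 and 21.2 TPM. FAM162A, a HIF-responsive mitochondrial protein, was 2.14-fold higher in HepG2. Of the 8 genes listed for mitophagy and growth arrest, 7 were compared. SKHEP1 was at least 4-fold higher for 2 of these (28.6%, background 16.5%) and HepG2 for 0 (background 13.0%). The median was -0.39.

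CA9 and CA12 encode membrane carbonic anhydrases that face the outside of the cell and regulate pH. CA9 had 0 counts in SKHEP1 and 34 in HepG2, or 1.53 CPM. Against the floor of 3 counts it was at least 10.3-fold higher in HepG2, with a lower 95% limit of 7.95. CA9 shares exon sequence on the opposite strand with ARHGEF39, which had 176 and 494 counts. Without a stated strand setting of the counting, the few CA9 reads cannot be told apart from reads of ARHGEF39.

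CA12 had 35 counts in SKHEP1 and 7 in HepG2, or 1.73 and 0.32 CPM. By counts it was 5.49-fold higher in SKHEP1, with a wide interval of 2.40 to 14.6 that reaches below 4-fold. By TPM the levels were 0.76 and 0.33, a 2.30-fold difference, since the isoform-weighted length was 3805 bases in SKHEP1 and 1681 in HepG2. The call for CA12 is therefore lost per length, and the length itself rests on 7 reads in HepG2. In HepG2 CA9, at 3.02 TPM, lay below ADM (6.10), NDRG1 (8.78) and BNIP3 (88.2), and among the genes with at least 10 counts these ranked 10988, 9647, 8781 and 1859.

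Other carbonic anhydrases were low or seen in 1 line. The mitochondrial CA5A, a liver enzyme, was at 0 counts in SKHEP1 against 461 in HepG2, at least 140.0-fold higher against the floor with a lower 95% limit of 113.4. It was at 62.7 TPM there, above CA9. CA14 was at 0 counts in SKHEP1 against 46 in HepG2, at least 14.0-fold higher (lower limit 10.9), and CA13 was 4.45-fold higher in HepG2 (3.22 to 6.28). CA11 had 40 counts in SKHEP1 and 8 in HepG2, and CA2 had 1 and 6. The bicarbonate transporter SLC4A4 was at 216 counts in SKHEP1 against 1 in HepG2 (raw ratio 237.1, 42.1 to 9410). SLC4A7 and the lactate transporter SLC16A1 were 1.08-fold higher in SKHEP1 and 1.26-fold higher in HepG2. In this list 9 genes were compared. HepG2 was at least 4-fold higher for 3 (33.3%, background 13.0%) and SKHEP1 for 2 (22.2%, background 16.5%). The median was -0.10.

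By TPM, the order of the 10 genes in SKHEP1 was HIF1A (186.6), BNIP3 (110.2), ADM (44.8), NDRG1 (29.8), EGLN1 (28.8), VHL (20.9), EPAS1 (19.3) and CA12 (0.76), with EGLN3 and CA9 listed at 0. Of these neighbours, NDRG1 and EGLN1, and VHL and EPAS1, had overlapping counting intervals. In HepG2 the order was HIF1A (157.4), EPAS1 (118.4), BNIP3 (88.2), VHL (64.1), EGLN1 (29.2), NDRG1 (8.78), ADM (6.10), CA9 (3.02), EGLN3 (0.71) and CA12 (0.33). There, EGLN3 and CA12 had overlapping intervals. EPAS1 moved from the rank of 7 in SKHEP1 to 2 in HepG2, and ADM from 3 to 7. HIF1A ranked 838 of 13831 genes with at least 10 counts in SKHEP1 and 977 of 13405 in HepG2.

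Across the other 104 listed genes of the hypoxia pathway, calls were found in both directions. Of the 94 compared, SKHEP1 was at least 4-fold higher for 18 (19.1%) and HepG2 for 15 (16.0%), against the background of 16.5% and 13.0%. The median log2 ratio was -0.09, and -0.03 for all genes. The lists for oxygen sensing, glycolysis, pH regulation and secreted factors held genes past 4-fold in both directions, and each of the other lists in 1 direction only, as the plot of listed genes shows.

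**Figure D3:**
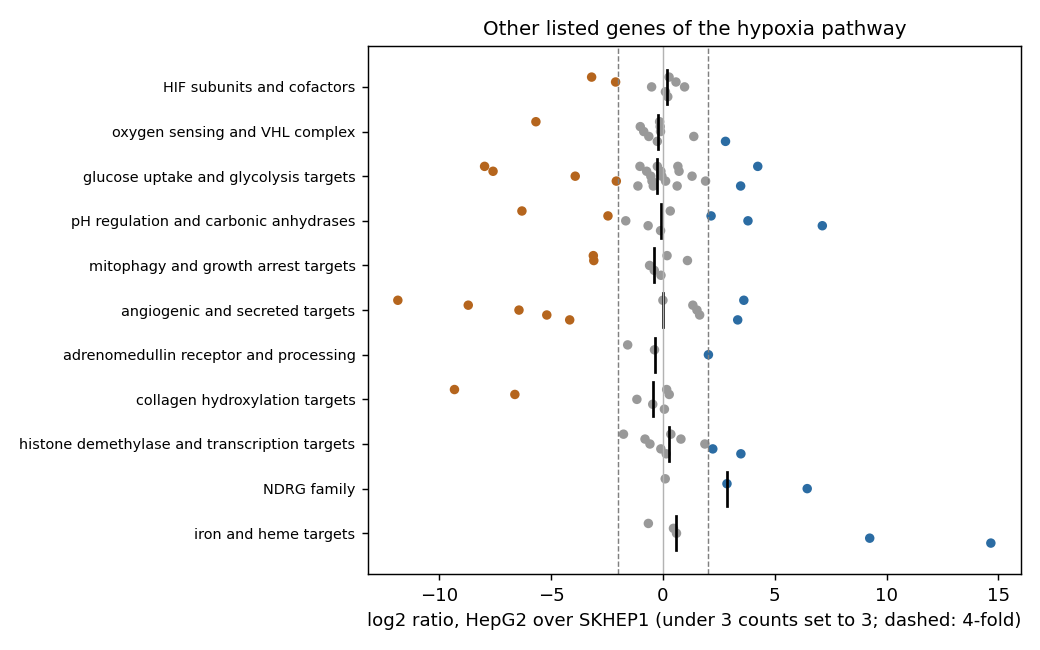
Log2 ratio, HepG2 over SKHEP1, of each compared gene in 11 lists of the hypoxia pathway (points; brown and blue pass 4-fold towards SKHEP1 and HepG2, grey did not reach 4-fold), with the list median as a black bar and the 4-fold limits dashed. The medians of 10 lists lie between -0.45 and 0.61, and that of the 3 NDRG relatives is 2.87.

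Of 21 genes of glucose uptake and glycolysis, 4 were at least 4-fold higher in SKHEP1 (19.0%, background 16.5%), 2 in HepG2 (9.52%, background 13.0%) and 15 did not reach 4-fold, with a median of -0.25. HK1, a hexokinase, had 2520 counts in SKHEP1 against 11 in HepG2, a 251.5-fold difference (140.3 to 504.5), and PFKP, the platelet phosphofructokinase, was 193.5-fold higher in SKHEP1 (143.5 to 267.6). Their isozymes HK2 and PFKL were 1.09-fold and 1.59-fold higher in HepG2. PFKFB3, an activator of glycolysis, was 15.1-fold higher in SKHEP1 (12.3 to 18.8). SLC2A3, a glucose transporter, was 11.1-fold higher in HepG2 (9.83 to 12.6), as was the aldolase ALDOC by 18.9-fold (10.9 to 36.0), while its isozyme ALDOA was 1.55-fold higher there.

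Of 11 secreted and angiogenic targets compared, 5 passed 4-fold towards SKHEP1 (45.5%, background 16.5%) and 2 towards HepG2 (18.2%, background 13.0%). IGFBP3, an IGF carrier, had 13481 counts in SKHEP1 against 4 in HepG2, a 3700-fold difference (1445 to 13582). STC1, a secreted glycoprotein, had 1140 and 0 counts, at least 417.2-fold higher in SKHEP1 (lower limit 338.7). EDN1, or endothelin, and ANGPTL4, an inhibitor of lipoprotein lipase, were 86.6-fold and 36.6-fold higher in SKHEP1. The growth factor TGFA and the ribonuclease ANG were 12.3-fold and 10.2-fold higher in HepG2.

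Of 7 genes for collagen hydroxylation and cross-linking, 2 were at least 4-fold higher in SKHEP1 (28.6%, background 16.5%) and 0 in HepG2 (background 13.0%). The 2 were the amine oxidases LOXL2 (639.6-fold, 439.5 to 970.9) and LOX (98.4-fold, 85.8 to 113.3). The hydroxylases were close, such as P4HA1 at 1.12-fold and PLOD1 at 1.22-fold higher in HepG2, and P4HA2 at 2.24-fold and PLOD2 at 1.37-fold higher in SKHEP1. Of 10 compared histone demethylase and transcription genes, 2 were at least 4-fold higher in HepG2 (20%, background 13.0%) and 0 in SKHEP1 (background 16.5%). These were the transcription factor NFIL3 at 4.69-fold (4.14 to 5.34) and the nuclear receptor RORA at 11.2-fold by counts and 2.10-fold by TPM. INSIG2, a sterol regulator, was 3.67-fold higher in HepG2 by counts and 4.88-fold by TPM. Of 5 iron and heme genes, the plasma carriers TF and CP were at least 4-fold higher in HepG2 (40%, background 13.0%). Both are liver plasma proteins, with 85576 and 2003 counts there and 0 and 1 in SKHEP1. TFRC, the transferrin receptor, was 1.52-fold higher in HepG2, and HMOX1, heme oxygenase, 1.57-fold higher in SKHEP1.

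The choice of scaling left 8 of the 10 genes on the same side. The exceptions were HIF1A and BNIP3, whose ratios lay near equality. All 15 housekeeping genes lay within 4-fold. They had a median log2 ratio of -0.52, and scaling on them shifts all ratios by 0.52 towards HepG2. PGK1 and TFRC among them are also in the glycolysis and the iron and heme lists, at log2 ratios of -0.73 and 0.61.

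**Figure D4:**
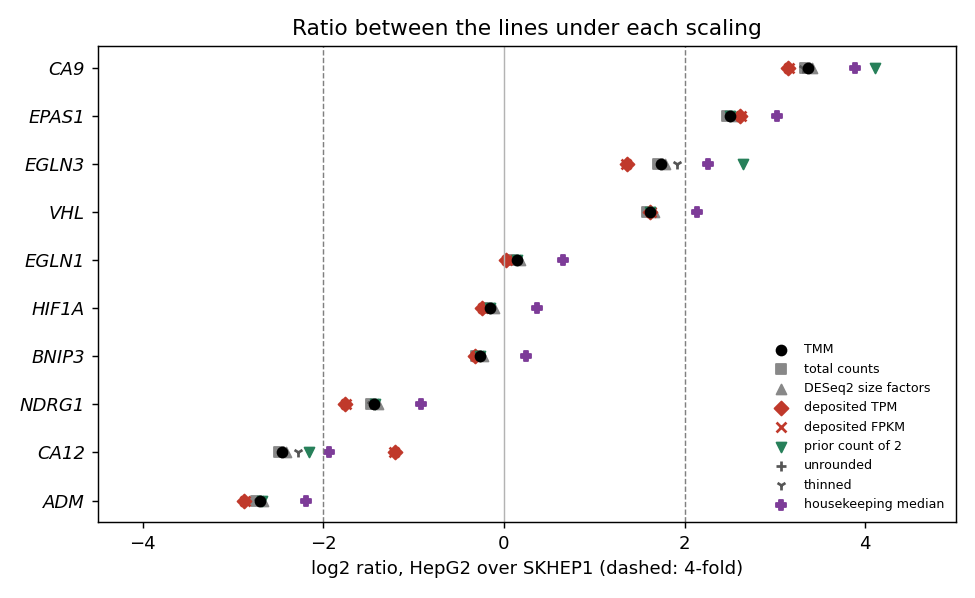
Log2 ratio, HepG2 over SKHEP1, of each gene under the main TMM scaling (black) and 8 alternatives, with the 4-fold limits dashed. ADM, EPAS1 and CA9 lie beyond a limit under each setting shown, while CA12 falls inside it from TPM, FPKM and the housekeeping scaling.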

How the data were processed

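Gene tables of 2 libraries, 1 each of SKHEP1 and HepG2, were used, grouped by the labelled cell line. Per the submitters' processing notes, cutadapt, STAR, RSEM and DESeq2 were used with genome build hg19. Versions, the annotation and the strand setting were not given in the sources used here. The deposited values are expected counts (estimated reads per gene), TPM and FPKM from RSEM, per the file headers.

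Expected counts were rounded and scaled to CPM by TMM factors (1.01 and 0.99) with edgeR 4.0.16 in R 4.3.3. The comparison took genes that reached 10 expected counts in 1 or both libraries, and called those 4-fold or more apart. Counts under 3 were set to 3 for calls and medians; ratios with 1 to 3 counts are given raw with their interval. Level intervals are exact Poisson, and ratio intervals exact conditional Clopper-Pearson. No molecular identifiers are stated, so reads may repeat molecules. DESeq2 1.42.0 size factors and the other settings below were alternatives. The calculation, in Python 3.11.15 with scipy 1.17.1, was tested on simulated counts.

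The 10 genes, the 16 gene lists and the naming rule were chosen with earlier results of these data known. Named genes are the 10 members and, per pathway list, up to 4 genes of 100 or more counts furthest from equality, and up to 2 furthest in the direction opposite to the list median; others were added for their role after their values were seen. All lists matched except PECAM1, which was not analysed here. Exon overlaps and chromosomes come from GENCODE release 29 by identifier, and no hg19 coordinates are given.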

Additional observations from a re-analysis of the deposited data

How the results depend on the processing

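No paired analysis was possible because each line has a single library. Of the 2 genes at least 4-fold higher in SKHEP1, 1 (ADM) was counted with deposited TPM, with deposited FPKM, with a minimum of 50 counts, with the lower bound of the interval past the limit, and with the housekeeping scaling, an alternative added for the counts after seeing the data; 0 were with an 8-fold limit. Of the 2 higher in HepG2, 1 was counted with a minimum of 50 counts (EPAS1) and 1 with an 8-fold limit (CA9), 3 with a prior count of 2 added to both lines (EGLN3 was added), and 4 with a 2-fold limit or the housekeeping scaling (EGLN3 and VHL were added). With a 2-fold limit, 3 genes were higher in SKHEP1, as NDRG1 was added. The stricter limits and minimums remove genes by construction. For the other listed pathway genes, 23 in place of 15 were higher in HepG2 with a 2-fold limit, and otherwise their counts stayed within 1.5 times, between 15 and 25 for SKHEP1 and 10 and 19 for HepG2. The log2 ratio turned positive for HIF1A (0.37) and BNIP3 (0.25) with the housekeeping scaling, which shifts the median of all genes by 0.52; the ratio of no other gene of the 10 changed sign under the 8 scalings. The order by level was the same from FPKM and from counts per kilobase of effective length. EGLN3, CA9 and CA12 rest on at most 35 counts, so depth limits them most.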
